A study of Mus musculus with 50 samples.

Results

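The 10 genes described here are Spp1, Igf1, Gpnmb, Clec7a, Itgax, Lgals3, Cst7, Cd9, Ccl9 and Fabp5, a set that marks microglia of the newborn brain, disease-associated microglia, or both. They were chosen by name, with earlier results of these data known, and make up 10 of the 48526 genes in the count table. RNA was sequenced from 50 libraries of brain cells that were sorted by flow cytometry as microglia, 1 library per animal, in 14 groups. Every mouse, controls included, was homozygous for floxed alleles of Hdac1 and of Hdac2, which encode class I histone deacetylases. Controls had no Cre, so loss of the deacetylases and presence of Cre cannot be told apart. The constitutive knockouts had CX3CR1-Cre and no treatment, and they and their controls were sampled as newborns (P0), at 14 days (2 weeks) and at 45 days (6 weeks). Inducible knockouts had CX3CR1-CreERT2. They and their controls came from dams injected with 3 mg tamoxifen on embryonic day 13, and this line was sampled on embryonic day 16 (E16) as well as at P0, 2 weeks and 6 weeks. Constitutive controls and knockouts numbered 4 and 3 at P0, 4 and 2 at 2 weeks, and 4 and 3 at 6 weeks. Inducible controls and knockouts numbered 4 and 3 at E16, 3 and 4 at P0, and 4 and 4 at both 2 and 6 weeks. The Cx3cr1 promoter is active in microglia and also in other macrophages and monocytes, and the sources used here do not name the markers used for sorting.

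Microglia of the late fetal and newborn brain are a growing, phagocytic population, and a subset of them lies along developing axon tracts. These cells make secreted factors such as osteopontin and insulin-like growth factor 1, together with lectins, lysosomal proteins and lipid-handling proteins, and most of this programme is shut down as microglia mature. Microglia around amyloid plaques and in demyelinated or degenerating tissue switch much of it on again, which is why the same genes are used as markers of disease-associated microglia.

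By role, Spp1 encodes osteopontin, a secreted ligand of integrins and CD44. Igf1 encodes a growth factor for neurons and oligodendrocytes, and Ccl9 a secreted chemokine that signals through CCR1. At the cell surface, Clec7a encodes Dectin-1, a receptor for beta-glucans that signals through SYK. Itgax encodes CD11c, an alpha chain that pairs with the beta-2 integrin, and Cd9 encodes a tetraspanin. Gpnmb encodes a transmembrane glycoprotein of lysosomes and the cell surface. Inside the cell, Lgals3 encodes galectin-3, a lectin that binds damaged lysosomes and can also be secreted. Cst7 encodes cystatin F, an inhibitor of lysosomal cysteine proteases, and Fabp5 a carrier of fatty acids.

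In the GRCm38 assembly with GENCODE vM21 gene models the genes lie on 8 chromosomes. Spp1 spans chr5:104435118-104441050, Igf1 chr10:87858265-87937042, Ccl9 chr11:83572919-83578636, Clec7a chr6:129461591-129472779, Itgax chr7:128129547-128150657 and Cd9 chr6:125460266-125494791. Gpnmb spans chr6:49036546-49070929, Lgals3 chr14:47367751-47386160, Cst7 chr2:150570415-150578944 and Fabp5 chr3:10012548-10016607. Ccl9, Clec7a and Cd9 lie on the minus strand and the others on the plus strand. The libraries do not mark strand, so where exons of different genes overlap a read cannot be assigned by strand. This touches Spp1, of whose 1648 exon bases 309 overlap Gm42793, and Cd9, of whose 2044 exon bases 218 overlap Gm26728. Clec7a is annotated as a polymorphic pseudogene in that release.

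Promoter windows were available for 9 of the 10 genes from RefSeq (GRCm38.p6). Those of Spp1, Igf1, Gpnmb and Clec7a are shown as examples of genes that rose in constitutive knockouts at 2 weeks and have a match to a motif searched. The choice was made with the matches known. The window of Itgax, which rose too and has a match, is not shown. The windows of Lgals3 and Cst7, which also rose, have no match. Each is printed from 250 bases before the transcription start to 20 bases after it, 5′ to 3′ along the gene. Capitals mark GAGGAA, the core of the site of the myeloid factor PU.1, or TGACTCA, the site of AP-1.
Spp1, chr5:104434861-104435130, plus strand: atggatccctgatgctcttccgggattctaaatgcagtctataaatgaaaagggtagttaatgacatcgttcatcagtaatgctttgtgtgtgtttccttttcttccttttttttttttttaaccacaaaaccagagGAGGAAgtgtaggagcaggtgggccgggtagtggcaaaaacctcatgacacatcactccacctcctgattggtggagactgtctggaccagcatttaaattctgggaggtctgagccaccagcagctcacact
Igf1, chr10:87860861-87861130, plus strand: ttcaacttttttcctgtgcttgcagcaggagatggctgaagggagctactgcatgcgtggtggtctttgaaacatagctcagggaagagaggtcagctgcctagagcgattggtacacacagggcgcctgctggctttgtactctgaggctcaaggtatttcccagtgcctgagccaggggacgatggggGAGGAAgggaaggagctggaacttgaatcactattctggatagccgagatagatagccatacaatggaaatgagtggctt
Clec7a, chr6:129472760-129473029, minus strand: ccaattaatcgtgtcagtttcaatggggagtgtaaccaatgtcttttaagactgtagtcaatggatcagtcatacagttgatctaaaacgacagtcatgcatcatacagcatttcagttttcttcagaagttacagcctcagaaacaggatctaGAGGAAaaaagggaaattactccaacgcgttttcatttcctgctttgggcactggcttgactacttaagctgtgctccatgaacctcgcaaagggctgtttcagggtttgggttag
Gpnmb, chr6:49036268-49036537, plus strand: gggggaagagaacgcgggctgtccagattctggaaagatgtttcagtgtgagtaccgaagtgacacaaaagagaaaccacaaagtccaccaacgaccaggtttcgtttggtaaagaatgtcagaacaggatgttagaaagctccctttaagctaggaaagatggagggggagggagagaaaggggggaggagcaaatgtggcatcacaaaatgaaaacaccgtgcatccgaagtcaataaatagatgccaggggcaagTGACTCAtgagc
The PU.1 core GAGGAA, searched on both strands, was found 113 bases before the start of Spp1, 60 before that of Igf1 and 96 before that of Clec7a, and thus in 3 of the 9 genes. The search and the background used windows of 300 bases, from 250 before to 50 after the start, and 28.3% of all 32851 such windows hold it. A second listed window of Spp1 has no match. The listed starts of Igf1 and Lgals3 lie inside the gene spans given above, so the bases before the outer start of those spans were not searched. TGACTCA was found 8 bases after the start of Gpnmb and 56 bases before that of Itgax, in 2 of 9 genes, against 5.2% of all windows. CACGTG, the site of MiT/TFE factors, was in none of the 9 and in 7.15% of all windows. A match describes the letters of a window and says nothing of binding.

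The libraries held 11050277 to 29651179 counts. Levels are given in CPM (a library's counts-per-million scale), each difference as a log2 change ± standard error (SE), and each adjusted p comes from edgeR's quasi-likelihood test across all genes of a comparison with Benjamini-Hochberg adjustment. CPM divide by the library total, while the log2 changes come from libraries scaled by TMM (trimmed mean of M-values). A ratio of CPM means and a log2 change can therefore differ. A gene rose or fell only where the adjusted p was under 0.05. A gene count includes exons outside the deleted part, whose extent the sources used here do not give. In inducible knockouts Hdac2 was below every control from P0 on (at P0 48.9 to 73.9 against 132 to 145 CPM), and Hdac1 was too, apart from 1 of the 4 knockout libraries at 6 weeks. Several other libraries went against their label, and in constitutive knockouts at P0 Hdac2, at 124 to 190.5 CPM, was not lower than in controls (126 to 164). Hdac1 was at 35.7 CPM in the constitutive P0 library labelled knockout 68 (controls 11.4 to 13.6) and at 92.2 in the 6-week library labelled knockout No_380 (controls 13.4 to 16.6), and Hdac2 at 316 in the E16 library labelled knockout 1 (controls 133 to 165). In the constitutive 2-week library labelled knockout 89, Hdac2 at 70.1 CPM lay inside the controls (59.8 to 71.3). Markers of other cells moved in both directions in constitutive knockouts. The summed CPM of 13 neutrophil markers was 7592 to 11535 at P0 (controls 693 to 1637), 17980 and 51377 at 2 weeks (controls 115 to 834), and 2189 to 4901 at 6 weeks (controls 400 to 686). Astrocyte markers summed to 3088 to 3411 CPM at P0 (controls 882 to 1697), but to 22.5 and 33.4 at 2 weeks (controls 213 to 255) and 112 to 215 at 6 weeks (controls 340 to 534). The 20 homeostatic microglia genes summed to 3083 to 7136 CPM at P0 against 30975 to 35203 in controls. In bulk libraries fewer cells of a type and less RNA per cell cannot be told apart.

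In control microglia Spp1, Igf1, Gpnmb, Lgals3 and Fabp5 were high before and at birth and fell 11.3-fold or more by 2 weeks in both lines. Spp1 led the set: in inducible controls it was at 436, 516, 874 and 930 CPM at E16 and at 1022, 2066 and 2364 at P0, and in constitutive controls at 877, 908, 1012 and 1123 at P0. At 2 weeks it had dropped to 13.6 to 19.8 and 12.5 to 22.02 CPM, and at 6 weeks to 5.55 to 9.20 and 5.75 to 13.1. Every 2-week and 6-week control library lay far below every newborn one.

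Between E16 and P0 none of the 10 genes changed in the inducible-line controls by edgeR, at an unadjusted p under 0.05 for 2 of them. DESeq2 called 1, Spp1, among 412 genes called. The count at an unadjusted p is not set against a share of all genes and is no result about the members. Over all genes 0.0464% rose and 0.0116% fell by edgeR. Spp1 was above every E16 library in all 3 newborns, with a log2 change of 1.43 ± 0.34 (adjusted p = 0.202). Gpnmb was at 22.3 to 34.5 CPM at E16 and 33.0 to 62.1 at P0 (0.65 ± 0.23, adjusted p = 0.34). E16 control 2 stood apart, with Clec7a at 204 CPM (the other 3 at 58.6 to 77.5) and Lgals3 at 402 (the others at 56.4 to 96.1). Its summed neutrophil markers were 7087 CPM against 1555 to 2682 in the other 3, and the part of those cells in its values was not tested.

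From P0 to 2 weeks, 7 of the 10 genes fell and none rose in constitutive-line controls, and 6 fell and none rose in inducible-line controls. Over all genes 36.6% fell and 26.7% rose in the first line, and 32.7% fell and 21.9% rose in the second. The falls of Spp1 were −5.46 ± 0.18 and −6.49 ± 0.31 on the log2 scale (adjusted p = 2.55e-10 and 3.64e-07 by edgeR). Gpnmb went from 28.7 to 51.1 CPM to between 0 and 5 counts a library in constitutive controls (−7.70 ± 0.42). In both lines it passed the filter on low counts only through the P0 libraries, so its place among the falls is no independent support. The size of its fitted fall depends on counts near 0. Fabp5 fell from 93.7 to 108 CPM to 1.32 to 2.76 (−5.23 ± 0.18), and from 47.3 to 62.1 to 1.07 to 2.95 CPM in the inducible line (−4.67 ± 0.28). Igf1, the growth factor, fell by a similar amount in both lines, from 164 to 201 CPM to 12.5 to 14.9 (−3.50 ± 0.12) and from 153 to 252 to 9.0003 to 21.6 (−3.71 ± 0.30). For these genes the 2-week libraries all lay below the P0 libraries.

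Lgals3 fell from 37.6 to 59.3 CPM to 0.407, 0.461, 3.98 and 7.34 in constitutive controls (−3.76 ± 0.83, adjusted p = 0.00599), and from 56.3 to 80.5 to 0.861 to 2.22 in inducible controls (−5.25 ± 0.29). In the constitutive line Lgals3 passed the filter on low counts only through the P0 libraries, so its fall there is no independent support. Itgax, the CD11c chain, fell by less in both lines (−1.44 ± 0.34 and −1.19 ± 0.26). Clec7a fell in the constitutive line, from 37.4 to 58.2 CPM to 5.47 to 11.9 (−2.29 ± 0.24). In the inducible line it was at 27.1 to 61.9 CPM and then at 10.6 to 44.1, overlapping (−0.63 ± 0.46, adjusted p = 0.288). Cst7, Cd9 and Ccl9 did not pass in either line, with log2 changes from −0.17 to 0.41. Leaving out inducible P0 control 56, Cst7 rose by 0.89 (adjusted p = 0.0107), and leaving out P0 control 54, Cd9 rose by 0.37 (adjusted p = 0.0259). All 10 neuron markers fell over the same interval in each line, as did the 7 and 6 erythroid markers tested, and 19 and 18 of 20 homeostatic genes rose. Of the border macrophage markers 10 and 11 of 12 fell, from sums of 3221 to 4552 CPM to 1136 to 1399 in constitutive controls and from 4462 to 15483 to 1227 to 1317 in inducible controls. Of the monocyte markers 8 and 10 of 10 fell, and of the neutrophil markers 5 and 12 of 12. The part of these cells in the members' falls was not tested.

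Of 20 other genes of neonatal proliferative-region and axon-tract microglia, 19 fell in the constitutive line and 18 in the inducible line, and none rose. Among them were the lipid-droplet protein Plin2 (−3.23 ± 0.14 and −3.11 ± 0.16) and the heme-degrading enzyme Hmox1 (−2.55 ± 0.13 and −2.62 ± 0.12). Of the other disease-associated genes, 14 of 28 tested fell and 4 rose in the constitutive line, and 14 of 29 fell and 4 rose in the inducible line. Apoe, an apolipoprotein, fell by 2.24 ± 0.14 on the log2 scale in the constitutive line.

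From 2 to 6 weeks the set split. In constitutive-line controls Spp1 and Igf1 went on falling (−1.04 ± 0.24 and −2.30 ± 0.33), while Clec7a (2.03 ± 0.27), Itgax (2.07 ± 0.32) and Cd9 (1.00 ± 0.16) rose, 3 up and 2 down of 9 tested against 8.80% up and 8.93% down of all genes. In inducible-line controls Spp1 (−1.31 ± 0.21), Igf1 (−2.10 ± 0.25) and Cst7 (−0.79 ± 0.20) fell, and Lgals3 (2.41 ± 0.31), Cd9 (0.74 ± 0.09) and Itgax (0.70 ± 0.23, adjusted p = 0.0449) rose, 3 and 3 of 9, against 8.13% up and 8.98% down. The Itgax call of the inducible line was lost without any 1 of 6 of the 8 libraries (2-week controls 1, 3 and 4 and 6-week controls 5, 10 and 11), with values of 0.53 to 0.76. Fabp5 in the constitutive line missed the threshold (−1.48 ± 0.51, adjusted p = 0.0567) and passed without 6-week control No_376 (−1.87, adjusted p = 0.0397). Gpnmb was too low to be tested at these ages. Cd9 thus ended at its highest control levels, 817 to 1414 and 913 to 1086 CPM, at an age when Spp1 was at most 13.1 CPM.

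**Figure D1:**
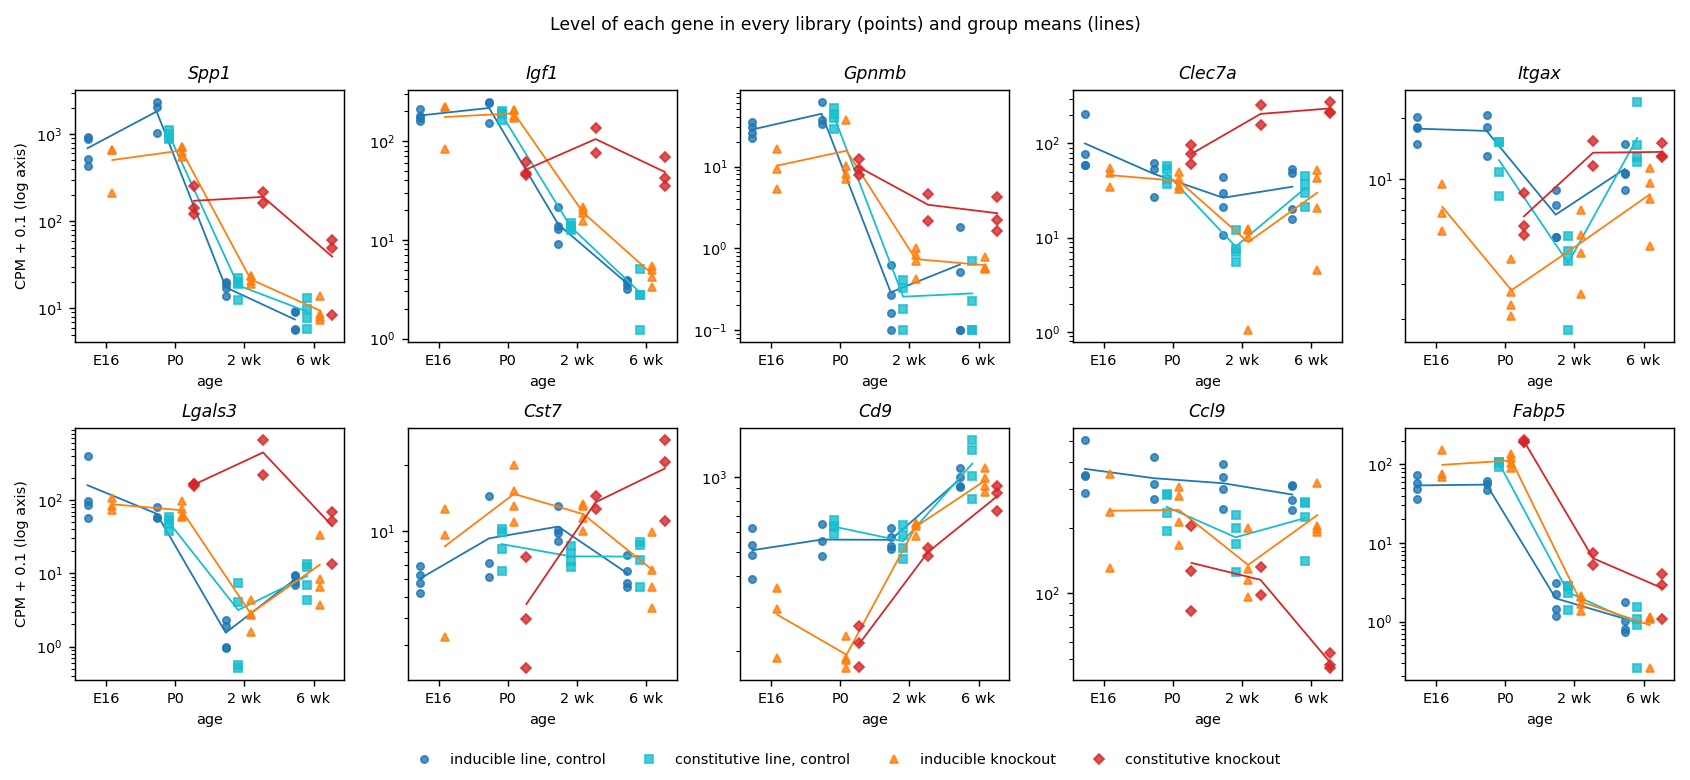
Level of each of the 10 genes (CPM + 0.1, log axis) by age, 1 panel per gene, with points for libraries and lines through group means of the 4 genotype and line combinations. Spp1, Igf1, Gpnmb and Fabp5 drop between P0 and 2 weeks in both control lines, whereas Cd9 and Ccl9 stay within 1 order of magnitude, and the constitutive knockouts lie above their controls at 2 weeks for 8 genes.

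Per kilobase of exon, so that genes can be compared, Spp1 was at 595 and Cd9 at 309 CPM per kb in newborn constitutive controls, followed by Ccl9 (81.7), Fabp5 (29.0), Lgals3 (26.7), Igf1 (18.9), Clec7a (18.1), Cst7 (8.72), Gpnmb (6.25) and Itgax (2.56). At 6 weeks Cd9 (554 CPM per kb) and Ccl9 (72.6) led, Spp1 was at 5.52, and Igf1 (0.288), Fabp5 (0.236) and Gpnmb (0.0278) were the 3 lowest. Ranked over all 14 groups by mean, most neighbouring groups overlapped in their library ranges. Of the 13 neighbouring pairs, those with no overlap numbered 4 for Fabp5, 3 for Igf1, 2 for Gpnmb and Cd9, 1 for Spp1, Clec7a, Lgals3 and Ccl9, and 0 for Itgax and Cst7. The highest group mean was that of inducible P0 controls for Spp1, Igf1 and Gpnmb, of E16 controls for Itgax and Ccl9, of constitutive 6-week controls for Cd9, and of a constitutive knockout group for Clec7a and Cst7 (6 weeks), Lgals3 (2 weeks) and Fabp5 (P0).

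At birth, constitutive knockouts had less of several neonatal transcripts. Spp1 was at 120, 141 and 254 CPM in the 3 knockout libraries against 877 to 1123 in controls, and it fell by 2.87 ± 0.27 on the log2 scale (adjusted p = 2.78e-05). Igf1 was at 45.2, 47.9 and 61.7 against 164 to 201 CPM (−2.21 ± 0.17), and Gpnmb at 7.77, 9.27 and 12.1 against 28.7 to 51.1 (−2.43 ± 0.26). Cd9 was at 173, 215 and 251 against 591 to 672 CPM (−1.93 ± 0.16, adjusted p = 2.13e-05). For these 4 genes every knockout library lay below every control.

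Itgax (−1.31 ± 0.31, adjusted p = 0.00575), Ccl9 (−1.21 ± 0.28, adjusted p = 0.0061) and Cst7 (−1.27 ± 0.40, adjusted p = 0.025) also fell, with overlapping groups. The Cst7 libraries were at 2.25, 3.84 and 7.47 CPM against 6.43 to 10.1, and the call was lost without knockout 73 (−0.94) or 76 (−1.18) or without control 71 (−1.17) or 74 (−1.22). Ccl9 missed the threshold when genes with low counts were kept in the fit (adjusted p = 0.0571). Lgals3 and Fabp5 went the other way: Lgals3 was at 154, 166 and 169 CPM against 37.6 to 59.3 and rose by 1.36 ± 0.16 (adjusted p = 0.000105, but 0.0538 in a fit of all 50 libraries). Fabp5 was at 192, 195 and 207 CPM against 93.7 to 108 and rose by 0.58 ± 0.11 (adjusted p = 0.00155). Clec7a was higher in all 3 knockouts (60.0, 76.8 and 95.8 against 37.4 to 58.2 CPM) without passing (0.34 ± 0.20, adjusted p = 0.207).

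Altogether 2 members rose and 7 fell at P0, where 21.4% of all genes rose and 20.2% fell, and the median log2 change of the members was −1.29 against 0.04 for all genes. The counts were the same without the library labelled knockout 68. The pan-myeloid genes, 12 in number, all fell at this age, from a sum of 18518 to 25838 CPM to 4089 to 6877, all 13 neutrophil markers and all 10 astrocyte markers rose, and so did 9 of 10 neuron markers and 9 of 10 monocyte markers. No marker of these lists was at 0 in all libraries of either group. Set against the summed pan-myeloid genes of the same library, the mean of Spp1 was 33.1 in knockouts and 42.6 in controls per 1000 pan-myeloid CPM, that of Igf1 9.83 and 8.10, and that of Gpnmb 1.79 and 1.74. On the same scale Lgals3 was at 31.5 and 2.13, Fabp5 at 38.2 and 4.54, and Clec7a at 15.1 and 2.06. Cd9 was at 39.6 and 27.5, Itgax at 1.28 and 0.523, Ccl9 at 25.5 and 10.7, and Cst7 at 0.783 and 0.369. The means of Cd9, Itgax, Ccl9 and Cst7, which fell in CPM, were thus higher in knockouts on this scale. These are ratios without a test, and Fabp7, a related carrier that astrocytes and radial glia make, also rose (1.33 ± 0.22).

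The partners of the 10 genes mostly went down with the myeloid genes at P0. Of 29 other disease-associated genes 23 fell and none rose, among them Apoe (−2.53 ± 0.19) and the lysosomal glycoprotein Cd68 (−2.92 ± 0.25). Of 8 osteopontin receptors, 5 fell, including Itga9 (−1.75 ± 0.16) and Itgb5 (−2.51 ± 0.30), and 2 rose, including Cd44 (1.45 ± 0.19). Of 12 IGF system genes 9 rose, with the binding protein Igfbp2 at 1.15 ± 0.14, and none fell. The Dectin-1 pathway had 6 falls and 3 rises among 11, with the adaptor Card9 at −2.20 ± 0.23, and the beta-2 integrin partners 3 falls, Itgam at −1.68 ± 0.17, and 1 rise among 5. Of the cysteine proteases and targets of cystatin F, 7 of 8 fell, Lgmn by 3.15 ± 0.31 and Ctss by 2.84 ± 0.27, and 1 rose. The tetraspanin list had 6 falls, Cd81 at −2.01 ± 0.16, and 1 rise among 10, the galectins 3 falls and 1 rise (Lgals1, 1.40 ± 0.17) among 5, and the relatives and receptor of CCL9 6 falls, Ccl3 at −3.01 ± 0.34, among 8. The 4 MiT/TFE factors, which drive lysosomal genes, all fell (Mitf −2.04 ± 0.22).

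At 2 weeks 8 of the 10 genes were above every control and rose in constitutive knockouts, and none fell. Of these, Spp1, Igf1, Gpnmb, Itgax and Cst7 had fallen at P0, Lgals3 and Fabp5 had risen at both ages, and Clec7a had not passed at P0. Spp1 was at 162 and 219 CPM in the 2 knockout libraries and at 12.5 to 22.02 in the 4 controls (3.40 ± 0.24, adjusted p = 1.66e-05). Igf1 was at 134 and 75.2 against 12.5 to 14.9 CPM (2.93 ± 0.18, adjusted p = 4.93e-06). Among the surface receptors, Clec7a was at 158 and 253 against 5.47 to 11.9 CPM (4.71 ± 0.34, adjusted p = 5.21e-05). For each of these the lower knockout library was several times the highest control.

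Lgals3 was at 224 and 674 CPM against 0.407 to 7.34, the largest change of the set, and rose by 7.29 ± 1.27 (adjusted p = 0.0116). Gpnmb had 36 and 103 counts in the knockouts and 0, 1, 4 and 5 in the controls (4.39 ± 0.79, adjusted p = 0.00174). It passed the filter on low counts only through the knockout libraries, so its place among the rises is no independent support. Itgax was at 11.4 and 15.4 against 1.67 to 5.12 CPM (1.87 ± 0.39). Fabp5 was at 5.20 and 7.39 against 1.32 to 2.76 CPM (1.502 ± 0.38) and Cst7 at 14.4 and 12.4 against 6.71 to 8.45 (0.83 ± 0.21, adjusted p = 0.0114, but 0.0896 in a fit of all libraries). Cd9 was at 480 and 519 CPM, inside the controls at 467 to 639 (−0.14 ± 0.16, adjusted p = 0.504). Ccl9 was at 98.5 and 132 against 125 to 229 CPM (−0.64 ± 0.27, adjusted p = 0.0925) and fell by DESeq2 (adjusted p = 0.0242) or without control 83 (−0.78, adjusted p = 0.0253).

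Over all genes 24.4% rose and 17.8% fell at this age, and the median log2 change was 2.40 for the 10 members and 0.00 for all genes. Without knockout 80 there were 8 calls, and without the library labelled knockout 89 there were 7, Fabp5 having lost the call (1.11, adjusted p = 0.0853). Leaving out either leaves 1 knockout library, which is then assumed to vary like the controls, so these counts do not show stability. All 13 neutrophil markers and all 9 monocyte markers tested rose at 2 weeks, from 20.1 to 76.9 CPM in controls to 2027 and 4608 for the summed monocyte markers, and 10 of 12 border macrophage markers rose. Among the controls Ly6c1, a monocyte marker, was at 0. Library 89, with neutrophil markers at 51377 CPM against 17980 in library 80, also had the higher Lgals3, Clec7a, Spp1, Gpnmb, Itgax and Fabp5, and library 80 the higher Igf1 and Cst7. The part of these cells in the rises was not tested. Neuron markers were at 4.47 to 5.66 CPM in the knockouts and 4.02 to 9.51 in controls, and none of 7 passed.

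**Figure D2:**
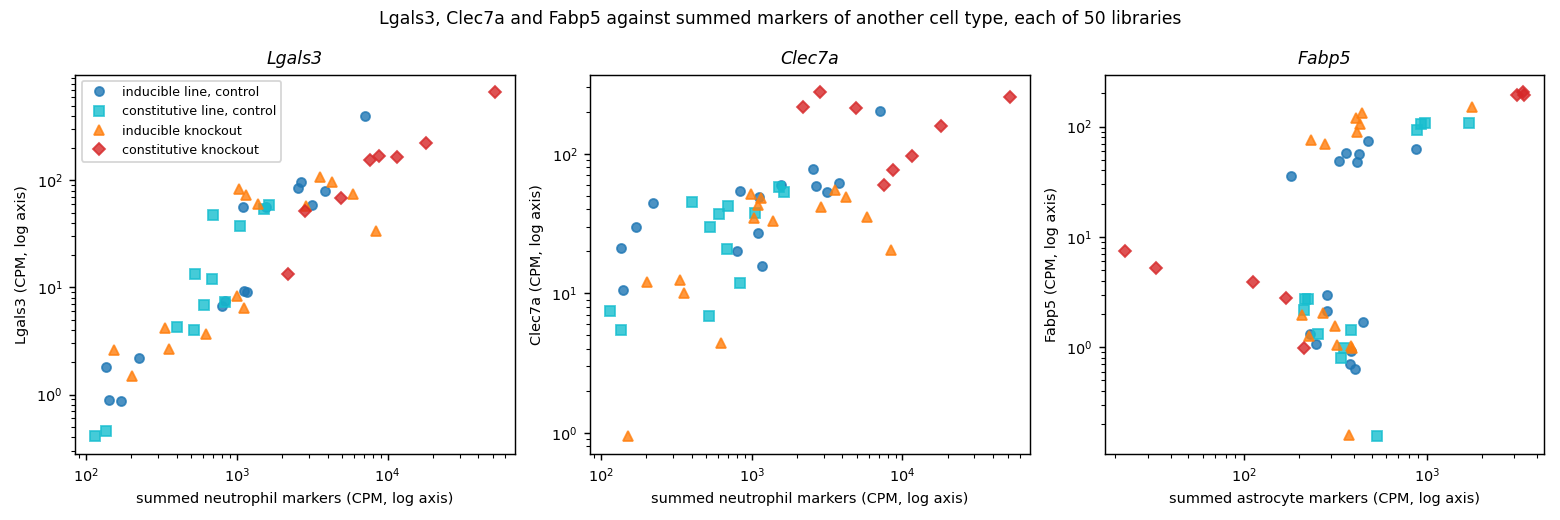
Lgals3 and Clec7a (vertical axes) against summed neutrophil markers, and Fabp5 against summed astrocyte markers, with 1 point per library for all 50 libraries and log axes in CPM. The constitutive 2-week knockouts, with neutrophil markers at 17980 and 51377 CPM, lie far to the right with Lgals3 at 224 and 674 CPM, and E16 control 2 lies between them in Lgals3 at 402 CPM.

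Other genes of the same programmes rose at 2 weeks as well. Of 29 other disease-associated genes, 12 rose and 3 fell. Axl, a receptor for apoptotic cells, went from 24.5 to 486 CPM on average (4.31 ± 0.16), Apoe rose by 3.27 ± 0.15 and Ch25h, which makes 25-hydroxycholesterol, by 8.52 ± 0.55. Of 20 other neonatal and axon-tract genes, 12 rose and 1 fell, with Lgals1 at 6.72 ± 0.20, Anxa5 at 4.83 ± 0.26 and Plin2 at 2.47 ± 0.14. This list and the disease-associated list share genes, among them Cd63 and Lpl, so their counts are not independent. Receptors of osteopontin moved apart: Itga4 (6.41 ± 0.20) and Cd44 (6.36 ± 1.04), which leukocytes carry, rose, and 4 of 8 fell, including Itgb3 (−2.27 ± 0.28). Of the Dectin-1 list 5 of 11 rose and 2 fell, and the risers included its fellow lectins Clec4n (7.56 ± 0.52) and Clec4d (6.81 ± 0.55). Ch25h, Clec4n and Clec4d each averaged under 1 CPM in the controls, so the sizes of their changes depend on low control counts. Of the beta-2 integrin list, 3 of 5 fell, Itgam by 1.32 ± 0.19, and Itgal, which lymphocytes and neutrophils carry, rose (6.83 ± 0.80). Ctsc, the protease that cystatin F controls, rose by 2.04 ± 0.14 among 3 rises and 2 falls of 7. The tetraspanin list gave 2 rises, including Cd63 (1.48 ± 0.12), and 6 falls, including Cd81 (−2.51 ± 0.18), of 10. Of the chemokine list 5 of 7 rose and none fell, with the receptor Ccr1 at 2.05 ± 0.15 and Ccl12 at 2.40 ± 0.13. IGF system partners gave 2 rises and 1 fall of 6, galectins 3 rises of 5, and MiT/TFE factors 1 rise (Tfec, 1.57 ± 0.26) and 1 fall of 4.

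At 6 weeks, 4 members rose and 1 fell in constitutive knockouts, against 6.76% and 5.24% of all genes. Igf1 was at 34.7, 41.8 and 69.6 CPM in knockouts and 1.12 to 4.94 in controls (4.08 ± 0.45, adjusted p = 0.000644). Clec7a was at 213, 215 and 278 against 20.8 to 45.0 CPM (2.77 ± 0.23, adjusted p = 5.28e-05). Cst7 was at 11.0, 20.5 and 26.1 against 5.44 to 8.81 CPM (1.30 ± 0.28, adjusted p = 0.0107). In all 3 genes the groups did not overlap.

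Gpnmb was at 1.51, 2.15 and 4.11 CPM against 0 to 0.599 (3.64 ± 0.94, adjusted p = 0.0305). With 27, 33 and 50 counts in knockouts and 0, 0, 2 and 15 in controls, it passed the filter on low counts only through the knockouts, so its place among the 4 rises is no independent support. Its call was lost without control No_376 (3.52) or No_377 (3.30) or without knockout No_379 (3.16), and without control No_400 its change was 5.86. Ccl9 fell, from 141 to 261 CPM in controls to 45.5, 46.7 and 53.5 (−2.23 ± 0.20, adjusted p = 4.81e-05), every knockout below every control. Knockout No_398 stood apart from the other 2 for Spp1 (8.33 against 48.9 and 60.6 CPM, with controls at 5.75 to 13.1) and for Lgals3 (13.4 against 51.4 and 68.4, with controls at 4.28 to 13.4). Spp1 (2.05 ± 0.65, adjusted p = 0.105) and Lgals3 (2.25 ± 0.63, adjusted p = 0.0733) did not pass with this library and did without it (2.53, adjusted p = 0.000158, and 2.68, adjusted p = 0.00269).

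Fabp5 was at 0.986, 2.80 and 3.91 against 0.156 to 1.44 CPM (1.60 ± 0.64, adjusted p = 0.147), Itgax at 12.8 to 15.0 against 12.04 to 24.1 (−0.28 ± 0.25), and Cd9 at 727 to 918 against 817 to 1414 (−0.49 ± 0.19, adjusted p = 0.127, and −0.61 with adjusted p = 0.0438 without control No_377). DESeq2 called 6 rises and a fit of all 50 libraries 7, each with the fall of Ccl9. Without knockout No_379 there were 3 rises, without the library labelled knockout No_380 there were 4 and without No_398 there were 6, with 1 fall each time. Library No_398 also had the lowest summed monocyte markers of the 3, at 208 CPM against 864 and 906 (controls 53.4 to 144), and neutrophil markers of 2189 against 2852 and 4901. At this age 9 of 10 neutrophil markers, 4 of 9 monocyte markers and 7 of 12 border macrophage markers rose, 11 of 20 homeostatic genes fell, and none of 12 pan-myeloid genes rose while 1 fell. Their part in the members' changes was not tested.

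Of 29 other disease-associated genes 8 rose and 5 fell at 6 weeks. Apoe reached a log2 change of 6.09 ± 0.46 and Axl 5.00 ± 0.24, and Ccl6, a chemokine close to Ccl9, fell by 1.36 ± 0.17. Of 20 other neonatal genes 5 rose, including Lgals1 (3.02 ± 0.29) and Anxa5 (2.05 ± 0.16), and 2 fell. The CCL9 receptor Ccr1 rose (3.98 ± 0.32) in a list with 3 rises and 2 falls of 8. Itga4 (4.04 ± 0.58) and Cd44 (3.20 ± 0.56) rose and Itgb3 (−1.69 ± 0.15) fell among 8 osteopontin receptors, Ctsc rose (0.85 ± 0.13) among 2 rises and 1 fall of 8 proteases and targets, and the IGF receptor Igf1r was the single change of 6 IGF system genes (−0.67 ± 0.15, and −0.53 with adjusted p = 0.055 without the library labelled knockout No_380).

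**Figure D3:**
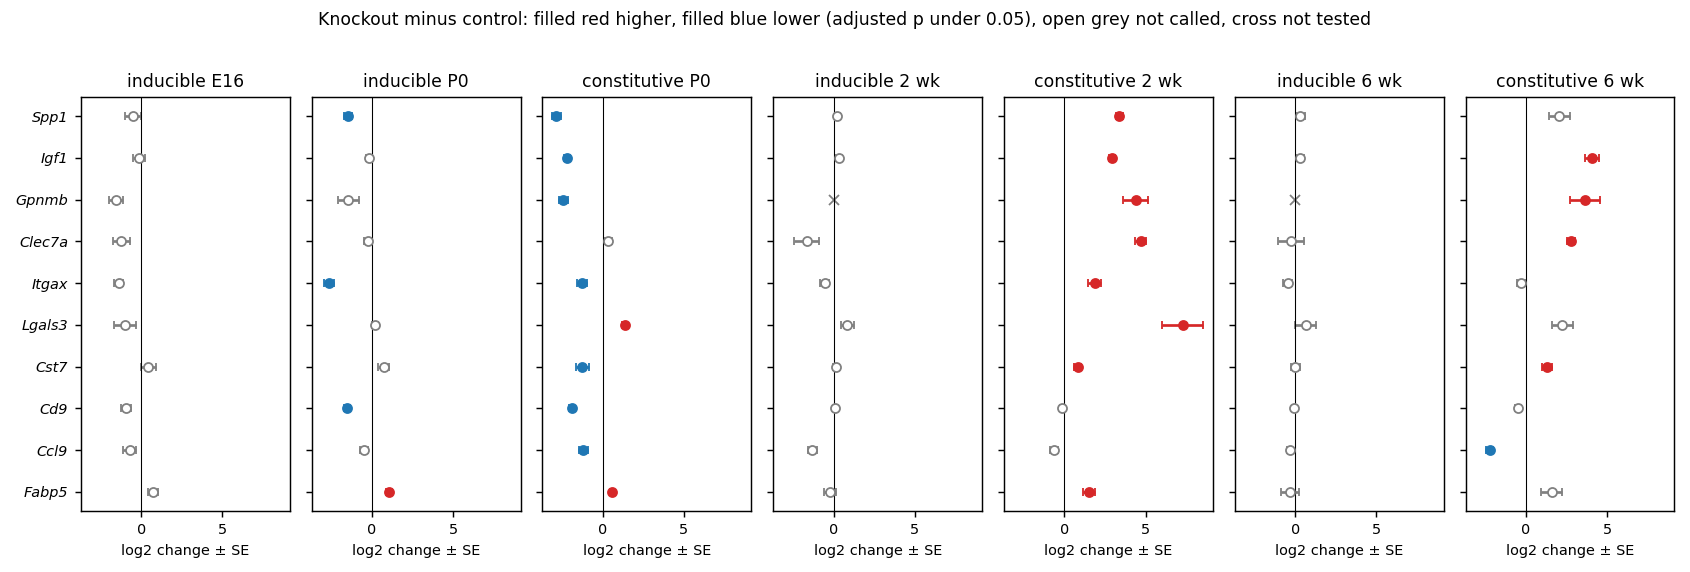
Log2 change of each gene, knockout minus control, with its SE, for the 7 comparisons of line and age. In the constitutive line Spp1 lies at −2.87 at P0 and at 3.40 at 2 weeks, and in the inducible line no gene is called at E16, 2 weeks or 6 weeks.

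The level of the older constitutive knockouts was set against that of the P0 controls. Knockouts at P0 were not tested against older knockouts. Mean CPM in knockouts at P0 and 2 weeks was 172 and 191 for Spp1 and 51.6 and 105 for Igf1. It was 9.72 and 3.31 for Gpnmb, 198 and 6.30 for Fabp5, and 163 and 449 for Lgals3. Percents are of CPM means, which carry no TMM scaling. The tests against P0 controls share their libraries with the comparisons at 1 age. At 2 weeks the knockout mean was 19.4% of the P0 control mean for Spp1, 56.1% for Igf1, 8.12% for Gpnmb and 6.09% for Fabp5, where 2-week controls had 1.87%, 7.22%, 0.384% and 2.18%. All 4 genes were below the newborn control level, by −2.12 ± 0.23 (Spp1), −0.64 ± 0.21 (Igf1, adjusted p = 0.0342), −3.36 ± 0.43 (Gpnmb) and −3.79 ± 0.23 (Fabp5). Ccl9 was also lower (−0.87 ± 0.24). Lgals3 and Clec7a were above the newborn control level, at 906% and 431% of the P0 control mean (3.45 ± 0.39 and 2.35 ± 0.25). Cst7 was higher (156%, 0.86 ± 0.29, adjusted p = 0.0435), and Itgax (109%, 0.36 ± 0.34) and Cd9 (79.1%, −0.11 ± 0.16) did not pass. That is 3 higher and 5 lower of 10, against 13.5% higher and 24.0% lower of all genes.

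The Igf1 difference was lost without the library labelled knockout 89 (−0.38) and without P0 control 69 (−0.58), 71 (−0.61) or 74 (−0.63), and was −0.99 without knockout 80. Cst7 lost its call without either knockout library (80: 0.86, 89: 0.84) or any 1 of the 4 P0 controls (0.73 to 0.96). Ccl9 lost it without knockout 80 (−0.59), and Lgals3 was at 2.27 without the library labelled knockout 89.

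At 6 weeks the knockout means were lower still for the neonatal genes: 4.01% of the P0 control mean for Spp1 (−4.43 ± 0.62), 26.1% for Igf1 (−1.71 ± 0.22), 6.35% for Gpnmb (−3.79 ± 0.35) and 2.48% for Fabp5 (−5.05 ± 0.32), against 0.928%, 1.52%, 0.444% and 0.815% in 6-week controls. Ccl9 was at 19.5% (−2.14 ± 0.17), where the 6-week controls were at 88.8%. Clec7a stayed at 492% (2.52 ± 0.17), Cst7 was at 223% (1.38 ± 0.31) and Cd9 at 132% (0.63 ± 0.13, with 6-week controls at 179%). Itgax (110%) and Lgals3 (89.7%) did not differ beyond the threshold from newborn controls. Altogether 3 were higher and 5 lower of 10, against 23.8% and 33.3% of all genes.

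In inducible knockouts at 2 weeks 8 of 10 genes were below the P0 controls, with Spp1 at −6.19 ± 0.29, Gpnmb at −5.88 ± 0.33, Fabp5 at −4.80 ± 0.19 and Lgals3 at −4.36 ± 0.26, and Cd9 was above them (0.37 ± 0.12, adjusted p = 0.0231). Of all genes 30.5% were lower and 22.9% higher. The Cd9 call was lost without 1 of 5 libraries (P0 controls 55 and 56 and knockouts 6, 10 and 13, 0.27 to 0.37), and that of Clec7a (−2.23 ± 0.71, adjusted p = 0.0344) without 1 of 6 (each of the 3 P0 controls and knockouts 6, 13 and 16, −2.52 to −2.004). Without P0 control 56, Cst7 passed as higher (1.05 against 0.58 ± 0.30). At 6 weeks 6 were lower, led by Spp1 (−7.48 ± 0.37), Gpnmb (−6.24 ± 0.30), Fabp5 (−5.93 ± 0.38) and Igf1 (−5.51 ± 0.24), and Cd9 was higher (0.91 ± 0.15), against 28.9% and 19.4% of all genes. Gpnmb, at 0.460 to 0.680 CPM in these knockouts, passed the filter on low counts only through the P0 controls. Its place among the 6 is thus no independent support. The call of Lgals3 (−2.20 ± 0.74, adjusted p = 0.0461) was lost without any 1 of the 3 P0 controls or without knockout 4, 9 or 12 (−2.30 to −1.87), and that of Itgax (−0.93 ± 0.30) without P0 control 54 or 55 or knockout 4 or 12 (−0.89 to −0.72). Ccl9 (−0.43 ± 0.22) passed without knockout 4 (−0.62, adjusted p = 0.0164).

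**Figure D4:**
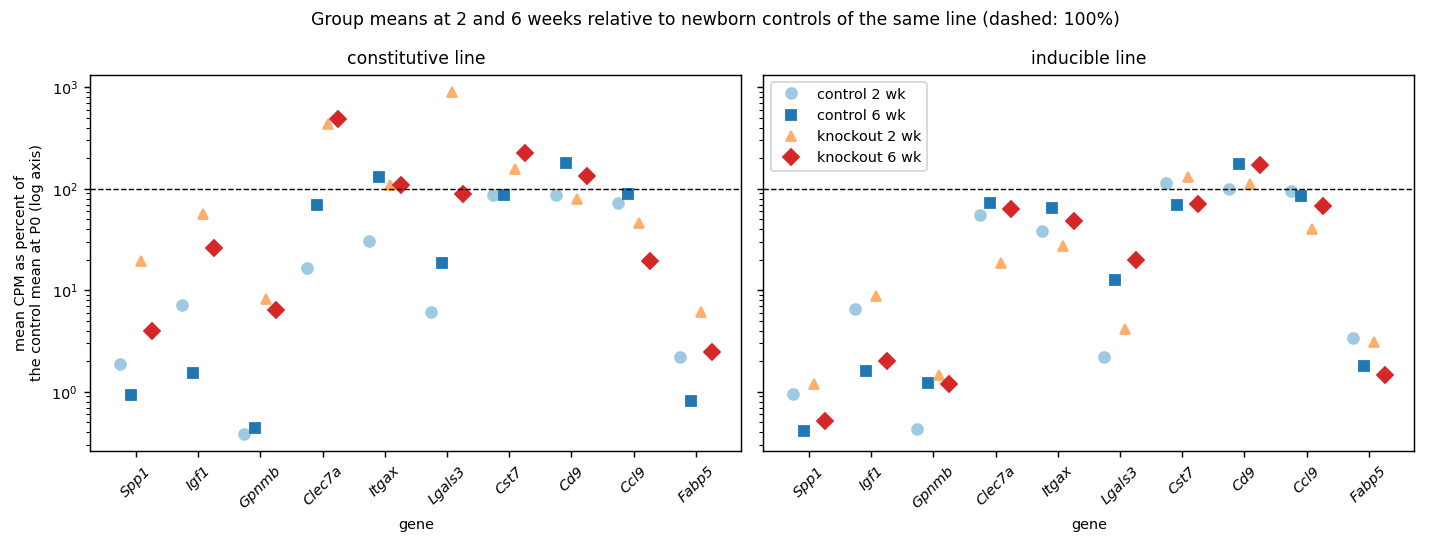
Mean CPM of each gene at 2 and 6 weeks as a percent of the P0 control mean of the same line (log axis, dashed line at 100%), for controls and knockouts. At 2 weeks constitutive knockouts lie at 19.4% for Spp1, 56.1% for Igf1 and 906% for Lgals3.

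Whether the knockout effect of the constitutive line differed between P0 and 2 weeks was tested as a difference of effects. A higher effect at 2 weeks is not in itself a change of sign: Lgals3, Clec7a and Fabp5 had positive values at both ages and Cd9 negative ones. The effect was higher at 2 weeks for 9 of 10 genes, against 21.7% of all genes (and lower for 9.07%), by 6.20 ± 0.39 for Spp1 (adjusted p = 6.37e-08), 5.08 ± 0.25 for Igf1 (adjusted p = 5.56e-09), 6.77 ± 0.69 for Gpnmb and 4.31 ± 0.41 for Clec7a. The others were Lgals3 (5.86 ± 1.07), Itgax (3.11 ± 0.53), Cst7 (2.04 ± 0.49), Cd9 (1.72 ± 0.23) and Fabp5 (0.86 ± 0.28, adjusted p = 0.0256), and Ccl9 did not pass (0.51 ± 0.44). Gpnmb passed the filter on low counts only through groups other than the 2-week controls, so its place among the 9 is no independent support. The size of its difference depends on control counts near 0. With DESeq2's size factors the share of called genes with a higher effect moved from 70.5% to 59.1%, and the median of all genes from 0.11 to −0.10. The Fabp5 call was then lost (0.65), as it was without the library labelled knockout 89 (0.48), knockout 73 (0.72) or control 69 (0.79), 78 (0.81) or 81 (0.65).

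Between 2 and 6 weeks the constitutive effect became lower for 4 genes, Lgals3 (−5.05 ± 1.34), Itgax (−2.16 ± 0.48), Clec7a (−1.95 ± 0.45) and Ccl9 (−1.60 ± 0.35), against 9.92% of all genes (and higher for 5.88%). The mean of Itgax was 13.4 then 13.5 CPM in knockouts and 3.72 then 15.9 in controls. That of Clec7a was 206 then 235 in knockouts and 7.94 then 33.2 in controls. In knockouts the mean went from 449 to 44.4 CPM for Lgals3 and from 115 to 48.6 for Ccl9. All 4 calls were lost without the 2-week library labelled knockout 89 (−3.88, −1.80, −1.43 and −1.24). That of Lgals3 was also lost without 2-week control 78 or 83, 6-week control No_376 or No_377, or knockout No_379 or No_398 (−5.17 to −4.59). Igf1 passed as higher without control No_376 (1.56 against 1.14 ± 0.54).

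In the inducible line none of the 10 genes changed at E16 by edgeR, as none of 17594 genes did (0% up and 0% down). At an unadjusted p under 0.05 there were 5, a count not set against a share of all genes and thus no result about the members. DESeq2 called 3 falls (Gpnmb, Itgax and Cd9), and a fit of all libraries 2 (Itgax and Cd9). Itgax was at 5.43, 6.70 and 9.34 CPM in knockouts and 14.7 to 20.2 in controls (−1.39 ± 0.28, adjusted p = 0.13, and −1.17 with adjusted p = 0.0369 without the library labelled knockout 1). Gpnmb was at 5.16, 9.25 and 16.1 against 22.3 to 34.5 CPM (−1.55 ± 0.41, adjusted p = 0.198) and Cd9 at 188, 295 and 357 against 390 to 622 (−0.94 ± 0.29, adjusted p = 0.244). With Clec7a (34.6 to 54.9 against 58.6 to 204 CPM), 4 members had every knockout below every control and 0 every knockout above, where 5.78% and 13.3% of all genes did.

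The library labelled knockout 1 had the lowest Spp1, Igf1, Gpnmb, Clec7a, Itgax, Cst7, Cd9 and Ccl9 of the 3 and the highest Fabp5 (151 against 68.96 and 75.5 CPM), with homeostatic genes at 9925 CPM, under the other 2. Its neuron and astrocyte markers, 4572 and 1755 CPM, were the highest of the E16 libraries, and their part was not tested.

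At P0, 3 members fell and 1 rose in inducible knockouts, against 3.56% and 6.81% of all genes. Itgax was at 1.97, 2.25, 2.65 and 3.90 CPM in knockouts and at 12.96, 18.0 and 20.7 in controls (−2.65 ± 0.32, adjusted p = 0.000683). Cd9 was at 171, 184, 188 and 230 against 481, 552 and 648 CPM (−1.53 ± 0.18, adjusted p = 0.000568). Spp1 was at 547, 630, 704 and 715 against 1022, 2066 and 2364 CPM (−1.47 ± 0.26, adjusted p = 0.0061). Each of the 3 had all knockouts below all controls.

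Fabp5 rose, from 47.3, 55.9 and 62.1 CPM in controls to 89.7, 105, 121 and 134 (1.04 ± 0.16, adjusted p = 0.00278). Gpnmb was at 6.997, 7.91 and 10.1 CPM in 3 knockouts and at 37.0 in knockout 57, with controls at 33.0 to 62.1 (−1.46 ± 0.66, adjusted p = 0.208), and it fell without knockout 57 (−2.41, adjusted p = 0.000432), giving 4 falls. Igf1 was at 173 to 208 against 153 to 252 CPM (−0.17 ± 0.19, adjusted p = 0.601). Clec7a (−0.25 ± 0.26), Lgals3 (0.18 ± 0.20), Cst7 (0.72 ± 0.32, adjusted p = 0.178) and Ccl9 (−0.47 ± 0.25, adjusted p = 0.25) overlapped with controls and did not pass. None of 13 neutrophil markers passed (their sums were 1378 to 5867 CPM, against 1095 to 3820 in controls), 1 of 10 astrocyte markers fell and none rose, 3 of 12 pan-myeloid genes fell, and 13 of 20 homeostatic genes fell. Set against 1000 pan-myeloid CPM, Spp1 was at 29.0 in knockouts and 70.6 in controls, Cd9 at 8.58 and 21.4 and Itgax at 0.118 and 0.664, so all 3 means were lower on that scale too. In the constitutive line at P0 the same scale gave Spp1 33.1 and 42.6, Cd9 39.6 and 27.5 and Itgax 1.28 and 0.523.

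Among partner genes at P0 in the inducible line, the integrin list changed with Itgax: Itgam (−2.23 ± 0.14) and the shared beta chain Itgb2 (−0.77 ± 0.13) fell and Itgal rose (0.88 ± 0.18, lost without control 55, 0.81), 3 of 5. Of 29 other disease-associated genes 8 fell, including the lipid receptor Trem2 (−1.68 ± 0.23), and 1 rose, Axl (1.55 ± 0.19). Fabp4 (4.35 ± 0.71) rose with Fabp5, and Cd37 (−1.36 ± 0.13) fell with Cd9 among 2 falls and 1 rise of 10 tetraspanins and partners. Fabp4 averaged under 1 CPM in the controls, so the size of its change depends on low control counts. Of the chemokine list 2 of 8 fell. The call of Ccl4 (−1.42 ± 0.32) was lost without knockout 48 (−1.28) or control 56 (−1.19), and that of Ccl6 (−0.76 ± 0.20) without knockout 48 or 49 or control 54 or 55 (−0.70 to −0.64).

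At 2 weeks none of the 9 genes tested changed in inducible knockouts by edgeR, 2 at an unadjusted p under 0.05, where 1.11% of all genes rose and 1.13% fell. The count at an unadjusted p is not set against a share of all genes and is no result about the members. DESeq2 and a fit of all libraries each called 1, the fall of Ccl9. That gene was at 96.4, 115, 129 and 198 CPM in knockouts and 244 to 391 in controls, all below (−1.30 ± 0.26, adjusted p = 0.0541), and it passed without knockout 6 (−1.58, adjusted p = 3.5e-05). Spp1 was at 19.2 to 23.3 against 13.6 to 19.8 CPM (0.24 ± 0.14) and Igf1 at 15.5 to 21.4 against 9.0003 to 21.6 (0.33 ± 0.22). Clec7a was at 0.944 to 12.4 against 10.6 to 44.1 CPM (−1.66 ± 0.77, adjusted p = 0.373), with knockout and control ranges overlapping. Lgals3 was at 1.49 to 4.18 against 0.861 to 2.22 CPM (0.84 ± 0.39), Itgax at −0.55 ± 0.29, Cst7 at 0.12 ± 0.18, Cd9 at 0.10 ± 0.09 and Fabp5 at −0.20 ± 0.38 on the log2 scale. Gpnmb, at 0.324 to 0.917 against 0 to 0.533 CPM, was too low to be tested. Of 28 other disease-associated genes 2 rose, Axl (1.82 ± 0.24) and Apoe (1.05 ± 0.18, lost without knockout 10 or control 1), and 4 fell, and Ccr1 rose (0.96 ± 0.14) while Ccl4 fell (−1.34 ± 0.23).

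At 6 weeks none of the 9 genes tested changed, and none had an unadjusted p under 0.05, by edgeR or by DESeq2, while 1 did with no filter on low counts. Over all genes 0.0492% rose and 0.0141% fell. The log2 changes lay between −0.46 ± 0.26 (Itgax) and 0.64 ± 0.64 (Lgals3), with Spp1 at 0.32 ± 0.26, Igf1 at 0.30 ± 0.26 and Clec7a at −0.25 ± 0.78. In knockout 6 Lgals3 was at 33.7 CPM (the other 3 at 3.64 to 8.24), and its neutrophil markers summed to 8393 CPM (the others at 626 to 1110).

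Within the inducible line the knockout effect was higher at 2 weeks than at P0 for 3 genes, Itgax (2.17 ± 0.46, adjusted p = 0.0119), Spp1 (1.78 ± 0.30, adjusted p = 0.00282) and Cd9 (1.69 ± 0.18, adjusted p = 4.31e-05), and lower for none, against 2.67% and 1.71% of all genes. In a fit of all libraries the Spp1 difference had an adjusted p of 0.059. Gpnmb passed without knockout 57 (4.16 against 3.18 ± 1.10), and Fabp5 (−1.16 ± 0.34, adjusted p = 0.0606) without it (−1.19) or without 2-week control 1 (−1.36).

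The lines were then compared by the difference of their knockout effects, constitutive minus inducible. They differ in Cre, in tamoxifen and in animals, which cannot be told apart. At P0 the constitutive effect was lower for Igf1 (−2.01 ± 0.26, adjusted p = 0.000157), Cst7 (−1.95 ± 0.55) and Spp1 (−1.36 ± 0.39, adjusted p = 0.0164), and higher for Itgax (1.38 ± 0.44, adjusted p = 0.025) and Lgals3 (1.21 ± 0.28). All genes gave 16.9% lower and 14.0% higher, and with DESeq2's size factors the share of calls that were higher went from 45.3% to 55.2% and the median of all genes from −0.04 to 0.09. The Spp1 difference was lost without the library labelled knockout 68 (−1.06), knockout 73 (−1.13) or control 69 (−1.16), that of Itgax without knockout 73 (1.26) or inducible control 55 (1.24), and that of Cst7 without knockout 73 (−1.53). Spp1 also missed the threshold with no filter on low counts (adjusted p = 0.0697) and in a fit of all libraries (adjusted p = 0.16), as did Lgals3 in that fit (adjusted p = 0.226). Clec7a (0.61 ± 0.36) passed without inducible control 56 (0.89) and Fabp5 (−0.43 ± 0.19) without inducible knockout 57 (−0.52).

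At 2 weeks the constitutive effect was higher for 6 members and lower for none, against 16.6% and 14.7% of all genes. The differences were 6.45 ± 1.28 for Lgals3, 6.37 ± 0.97 for Clec7a, 3.15 ± 0.26 for Spp1 (adjusted p = 1.64e-07), 2.59 ± 0.33 for Igf1, 2.41 ± 0.51 for Itgax and 1.69 ± 0.53 for Fabp5. Fabp5 lost the call without the library labelled knockout 89 (1.30) or inducible control 2 (1.40). Gpnmb (2.73 ± 1.24) passed without inducible control 3 (3.15), Cst7 (0.69 ± 0.26, adjusted p = 0.0532) without inducible control 4 (0.75) or knockout 6 (0.76), and Ccl9 (0.65 ± 0.40) without inducible knockout 6 (0.93). At 6 weeks Igf1 was higher (3.78 ± 0.47, adjusted p = 6.25e-05) and Ccl9 lower (−1.88 ± 0.28, adjusted p = 0.000329), against 2.54% and 2.41% of all genes. Clec7a (3.04 ± 0.89, adjusted p = 0.0866) passed without inducible knockout 12 (2.66), Spp1 (1.75 ± 0.66) without knockout No_398 (2.23), Lgals3 (1.62 ± 0.98) without inducible knockout 6 (2.71), and Cst7 (1.30 ± 0.41) without the library labelled knockout No_380 (1.57) or inducible knockout 4 (1.56).

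The 10 genes did not share 1 profile. Over the 14 group means of log2(CPM + 1), the correlation of pairs ran from −0.79 (Cd9 and Fabp5) to 0.96 (Spp1 and Gpnmb), with a median of 0.227, and 30 of 45 pairs were positive. Over the 7 control groups alone the median was 0.513. These values describe groups that share animals' lines, ages and depth, and carry no test. Of 12871 genes with at least 5 CPM in some group, the most like Spp1 were Akr1a1 (r = 0.983), Plin2 (0.980) and Acbd5 (0.977) over 14 groups. Igf1 was most like Apoc1 (0.983), Arhgap19 (0.976) and the border macrophage marker Mrc1 (0.975), and Gpnmb most like Serpinb6b (0.961), Plin2 (0.960) and Spp1 (0.960).

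For Clec7a these were Sh2d1b1 (0.939), the lysozyme gene Lyz2 (0.935) and Ptpn22 (0.925), and for Lgals3 the plasma protein gene Hp (0.990), S100a6 (0.986) and Cytip (0.986). Fabp5 was most like Selenow (0.993), Cnn3 (0.992) and Ddah1 (0.991), and Cd9 most like Cd300c2 (0.951), Saysd1 (0.945) and Acox3 (0.941). Itgax, Ccl9 and Cst7 had no gene above 0.88, with Fgd4 (0.878), Trim30c (0.865) and Sdf4 (0.837) as the closest.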

How the data were processed

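RNA-seq of sorted microglia was analysed in 50 libraries of 14 groups. The deposited count table (whole numbers per gene, not normalized) was the basis of every test, and the deposited CPM table, which the authors made by scaling to a library's total, was checked against CPM computed from the counts and differed by at most 4.9e-06. Per the submitters' processing notes, CASAVA 1.8.2, STAR 2.5.2b with GRCm38, featureCounts 1.5.1 (Subread) and limma 3.28.21 were used, while the sources used here do not name the annotation release. Per the labels' protocols, 1 ng RNA was amplified with a SMARTer kit and tagmented with Nextera XT, which keeps no strand. Amplified reads without molecular identifiers are not independent molecules.

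Groups came from the labels, and each library name gives the animal number. Each of 22 comparisons (7 of knockout with control, 5 of control ages, 4 of older knockouts with P0 controls, 6 of differences of effects) was fitted on only the groups it compares, with edgeR 4.0.16 under R 4.3.3. Genes were kept by filterByExpr (minimum count 10) and libraries scaled by TMM. The robust quasi-likelihood test was used, its p-values were adjusted by Benjamini and Hochberg's method over every gene tested, and the threshold was 0.05. An SE was obtained by dividing the size of the log2 change by the root of F. The fit was tested on simulated data. Replicate pairs of a group differed by a chi-square per gene of 9.27 to 193 over 67 pairs, so each library counted as 1 sample. Alternatives were DESeq2's size factors, no filter on low counts, DESeq2 1.42.0, all 50 libraries in 1 fit, and leaving out each library in turn.

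All 10 genes are named in every comparison, and from each other list up to 4 genes past the threshold with the smallest adjusted p may be named. Some genes are in several lists, so the counts of different lists are not independent. The nearest genes in profile are the 3 with the highest Pearson correlation over the 14 group means of log2(CPM + 1), among genes with a mean of at least 5 CPM in some group and a symbol that is not a predicted gene's. The 10 genes and the lists were chosen with earlier results of these data known. Of 48526 genes 48058 matched a symbol of GENCODE vM21, and Lilrb4a of the disease-associated list was unmatched. The p-values set each difference against the spread between these animals, which the fit estimates with information shared across genes.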

Additional observations from a re-analysis of the deposited data

Results flagged for a closer look

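The knockout effect differed by age or line, by edgeR's test of the difference of differences, in 29 member results. All values here are log2 differences. In the constitutive line the effect at 2 weeks minus that at P0 was 6.20 for Spp1, 5.08 for Igf1, 6.77 for Gpnmb, 4.31 for Clec7a, 3.11 for Itgax, 5.86 for Lgals3, 2.04 for Cst7, 1.72 for Cd9 and 0.86 for Fabp5. The effect at 6 weeks minus that at 2 weeks was −1.95 for Clec7a, −2.16 for Itgax, −5.05 for Lgals3 and −1.60 for Ccl9. In the inducible line the effect at 2 weeks minus that at P0 was 1.78 for Spp1, 2.17 for Itgax and 1.69 for Cd9.

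Between the lines, the constitutive minus the inducible effect at P0 was −1.36 for Spp1, −2.01 for Igf1, 1.38 for Itgax, 1.21 for Lgals3 and −1.95 for Cst7. At 2 weeks it was 3.15 for Spp1, 2.59 for Igf1, 6.37 for Clec7a, 2.41 for Itgax, 6.45 for Lgals3 and 1.69 for Fabp5. At 6 weeks it was 3.78 for Igf1 and −1.88 for Ccl9.

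A single library stood far from the others of its group in 7 of the 90 member and group combinations with enough libraries to check, where chance flags about 1 in 20 groups. Inducible P0 knockout 57 had Gpnmb at 37.0 CPM. E16 control 2 had Clec7a at 204 and Lgals3 at 402 CPM. Inducible 6-week knockout 6 had Lgals3 at 33.7 and Fabp5 at 0.160 CPM, knockout 4 of that group Ccl9 at 320.2 CPM, and knockout 9 Gpnmb at 0.680 CPM.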

How the results depend on the processing

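Of 216 member results with a test, 111 passed the threshold, 28 of these missed it in at least 1 alternative, and none of the 111 changed sign. The number of genes called moved by over 1.5 times as follows. At E16 it was 0 by edgeR, 881 by DESeq2 and 1576 in a fit of all libraries. In inducible knockouts it was 1823 at P0 (2911 by DESeq2, 2743 with all libraries), 313 at 2 weeks (888 with no filter on low counts, 662 by DESeq2, 84 with all libraries) and 9 at 6 weeks (25, 44 and 14 in the same order). Controls at P0 against E16 gave 10 (56, 412 and 76), inducible controls at 6 against 2 weeks 2400 (1525 with all libraries), the inducible effect at 2 weeks against P0 785 (1576 by DESeq2), and the difference between lines at P0 5946 (3770 with all libraries).

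Leaving out 1 library moved the count to between 0 and 638 at E16 (highest without the library labelled knockout 1), 680 and 1638 for inducible knockouts at P0, 94 and 938 at 2 weeks, and 5 and 18 at 6 weeks. It moved it to 3 to 126 for controls at P0 against E16 (highest without E16 control 2), 1153 to 1825 for constitutive knockouts at 6 weeks (lowest without the library labelled knockout No_380), 1101 to 3123 for the constitutive effect at 6 against 2 weeks (lowest without the library labelled knockout 89), 514 to 1048 for the inducible effect at 2 weeks against P0, and 3842 to 6067 for the lines at P0 (lowest without knockout 73).

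Signs changed only for member values that did not pass. Lgals3 in constitutive knockouts at 6 weeks against P0 controls (0.06) was −0.0078 with DESeq2's size factors, −0.0094 by DESeq2 and −0.017 with all libraries, and −0.41 to 0.50 with 1 library left out. The other ranges with 1 library left out were as follows. Against P0 controls, Cd9 ran from −0.30 to 0.047 and Itgax from −0.012 to 0.65 in constitutive 2-week knockouts, and Cst7 from −0.58 to 0.11 in inducible 6-week knockouts. For the constitutive effect at 6 against 2 weeks, Fabp5 ran from −0.34 to 0.51 and Gpnmb from −1.35 to 1.46. In constitutive knockouts at 2 weeks Cd9 ran from −0.30 to 0.0062. Between lines, Itgax ran from −0.025 to 0.47 at 6 weeks and Gpnmb from −1.23 to 0.0050 at P0. In constitutive controls Cst7 ran from −0.035 to 0.19 at 2 weeks against P0 and from −0.12 to 0.10 at 6 against 2 weeks. In controls at P0 against E16, Ccl9 ran from −0.38 to 0.088, Cd9 from −0.0053 to 0.28, Fabp5 from −0.082 to 0.21 and Itgax from −0.17 to 0.15. In inducible knockouts at E16, Cst7 ran from −0.0089 to 0.86, Igf1 from −0.38 to 0.25 and Lgals3 from −1.30 to 0.071. At P0 Lgals3 ran from −0.033 to 0.33, and at 2 weeks Fabp5 from −0.40 to 0.10. At 6 weeks Cd9 ran from −0.12 to 0.0039, Clec7a from −0.65 to 0.12, Cst7 from −0.25 to 0.18, Fabp5 from −0.47 to 0.088 and Lgals3 from −0.46 to 0.96.

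No paired analysis was possible because the numbers name different animals and the groups compared share fewer than 2 of them. Precision is limited by the constitutive groups of 2 or 3 knockouts and by low levels in 2-week and 6-week controls, where libraries had 0 to 1.71 CPM of Gpnmb and 0.156 to 2.95 CPM of Fabp5. Without 1 of the 2 constitutive 2-week knockouts, the lone library is assumed to vary like the other groups. The cause of each change was not tested.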
